A study of Mus musculus with 4 samples.

Results

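The genes described here are Rhox5, a homeobox gene regulated by DNA methylation, and 8 genes that write, read or remove DNA methylation: Dnmt1, Dnmt3a, Dnmt3b, Uhrf1, Mbd1, Mbd2, Mbd3 and Tet1. They are 9 of the 12393 genes for which the mouse array has a probe set with 1 gene symbol. Every probe set that carries one of these symbols alone was taken, 22 in all. Rhox5 was selected on its MAS5 signals in these same arrays, in which its fall was already known, and the other 8 genes were added for their role. The contrast between the cell populations therefore belongs to the choice of genes. Its values, and any calls on these genes, are given as a description and not as a test.

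RNA came from NF639, a mouse mammary tumour line driven by ErbB2 (Her-2/neu). On Affymetrix Mouse 430A 2.0 chips, 2 arrays held RNA of the original cells and 2 held RNA of a pool that resists the green tea polyphenol epigallocatechin 3-gallate (EGCG). The study's design text places the RNA in separate experiments, and the labels do not say whether the resistant pool was in EGCG at harvest. The resistant cells are a pool and not a clone, both groups come from 1 cell line, and in such cultures fewer expressing cells and less RNA per cell cannot be told apart.

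DNA methylation places methyl groups on the cytosines of CpG dinucleotides. Dnmt3a and Dnmt3b set new marks, and Dnmt1, guided by Uhrf1 to freshly copied DNA, keeps marks through cell division. Proteins with a methyl-CpG binding domain, such as Mbd1 and Mbd2, read the marks and recruit corepressors, and Tet enzymes oxidise the methyl group on the way to its removal. Rhox5, also called Pem, is a homeobox gene of the X-linked Rhox cluster that is normally active in reproductive tissue and placenta, is kept silent by methylation in many somatic cells and is expressed in various tumour lines. EGCG has been reported to inhibit DNA methyltransferase activity in biochemical assays. The arrays measured RNA, and neither methylation nor enzyme activity was measured.

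The region around the Rhox5 start is shown because this is the gene that changed and because methylation acts on CpG. It is set beside the same region of Dnmt3b, a gene of the machinery with a CpG-dense start. Both come from RefSeq (GRCm38.p6) and run from 250 bases before to 50 bases after an annotated transcript start, on the + strand in both cases. Rhox5 lies at chrX:37754358-37754657 and Dnmt3b at chr2:153649199-153649498. Capitals mark each CpG.
Rhox5: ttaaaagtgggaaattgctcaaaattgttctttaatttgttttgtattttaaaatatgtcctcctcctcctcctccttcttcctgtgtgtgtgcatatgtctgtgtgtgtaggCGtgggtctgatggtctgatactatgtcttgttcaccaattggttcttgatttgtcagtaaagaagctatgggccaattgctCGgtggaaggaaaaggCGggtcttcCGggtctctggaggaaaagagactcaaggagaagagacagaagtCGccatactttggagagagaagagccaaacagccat
Dnmt3b: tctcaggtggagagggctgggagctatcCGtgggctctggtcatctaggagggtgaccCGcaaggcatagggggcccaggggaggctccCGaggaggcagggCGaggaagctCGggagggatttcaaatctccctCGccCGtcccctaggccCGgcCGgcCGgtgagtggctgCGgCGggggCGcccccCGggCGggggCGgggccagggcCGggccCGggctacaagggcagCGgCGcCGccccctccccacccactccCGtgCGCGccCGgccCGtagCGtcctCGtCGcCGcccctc

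The Rhox5 region held 5 CpG and 43.7% G and C, and the Dnmt3b region held 30 CpG and 76.0% G and C. Over the 32841 start regions of the RefSeq table the median was 7 CpG, and 38.0% of the regions had fewer CpG than Rhox5. The table held start regions for 7 of the 9 genes, 12 in all, and does not list Mbd1 and Mbd2. The Dnmt3a regions held 46, 47 and 18 CpG. The Uhrf1 regions held 12 and 33, and the Dnmt1 regions held 2, 12 and 33. Mbd3 had 22 and Tet1 had 17. Rhox5 therefore had fewer CpG than each region of the other genes except 1 of the 3 Dnmt1 starts.

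**Figure D1:**
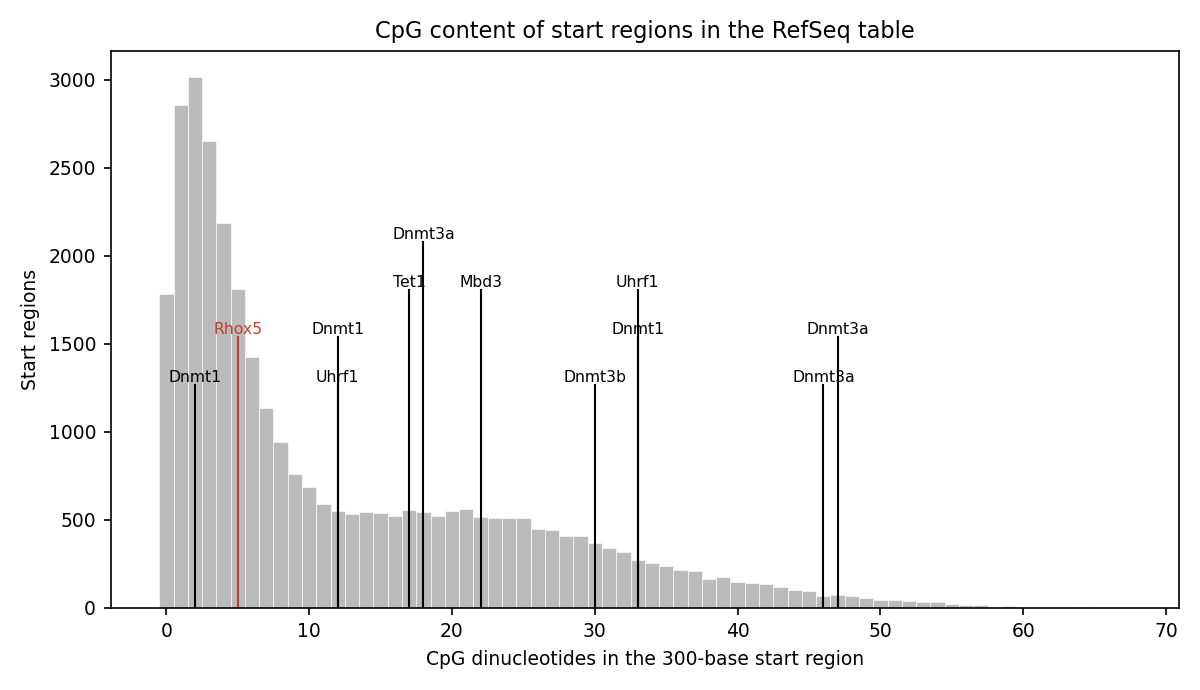
Number of CpG dinucleotides (x axis) in the 300-base start regions of the RefSeq table (grey bars, number of regions on the y axis), with vertical lines for the 12 regions of the described genes, whose heights only separate the labels. Rhox5 (red) has 5 CpG, somewhat below the median of 7, with 38.0% of the regions holding fewer. The starts of the other genes run from 2 to 47.

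Ets and Sp1 family factors are known to drive a Rhox5 promoter in granulosa and tumour cells, so their core letters were searched for on both strands of the Rhox5 region. An Ets-type core, CCGGAA, occurred 1 time, on the opposite strand from base -33 relative to the start. The Sp1-type box, spelled GGCGGG, occurred 1 time from base -41 and does not overlap the former. Both matches contain a CpG, at -30 for the Ets-type core and -39 for the Sp1-type box. Of all start regions in the table, 14.9% held the Ets-type core and 35.3% held the box of the Sp1 type. CCAAT matched 3 times in the Rhox5 region over both strands, and occurred in 37.4% of all regions. Its matches from bases -102 and -99 lie on opposite strands and overlap. The letters of a TATA box, TATAAA, were not found in the Rhox5 region. These matches describe letters and not binding. Whether the annotated start shown here belongs to the promoter that such factors drive was not tested.

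Rhox5 was lower in the resistant pool. Its probe set, 1423429_at, gave MAS5 signals of 3578 and 3469.7 in the original cultures, against 642.1 and 399.4 in the resistant ones. Both resistant arrays lay far below both original arrays, and Rhox5 stayed well above the filter on dim probe sets, a mean signal of 51.9, in every culture. The means were 3524 ± 76.6 and 520.8 ± 172 (SD, n = 2 per group), a 6.77-fold lower signal in the resistant pool. On the scale of log2(signal + 3) the difference, resistant minus original, was -2.79 ± 0.224 (SE from limma). It was the 12th largest fall among the 13576 tested probe sets.

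The original cultures differed little from each other in Rhox5, by -0.04 on the log2 scale for culture 2 minus culture 1. The resistant cultures differed by -0.68. By 14 spiked hybridisation control probe sets (BioB, BioC, BioD), all brighter by 1.39 to 2.46 times on array 2 than on array 1 of the same group, the arrays fall into 2 sets that follow their number, though no label names a batch. Within the first set the Rhox5 difference was -2.47 and within the second -3.11. One array, original 2, stood apart in the 5′ probe set for 18S ribosomal RNA, at 4005.3 against 346.7 to 624.3 on the rest, and its part in these results was not tested. Without that array the Rhox5 difference was -2.81, and those of Dnmt1, Dnmt3b and Uhrf1, described next, were -0.20, -1.04 and 0.08.

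**Figure D2:**
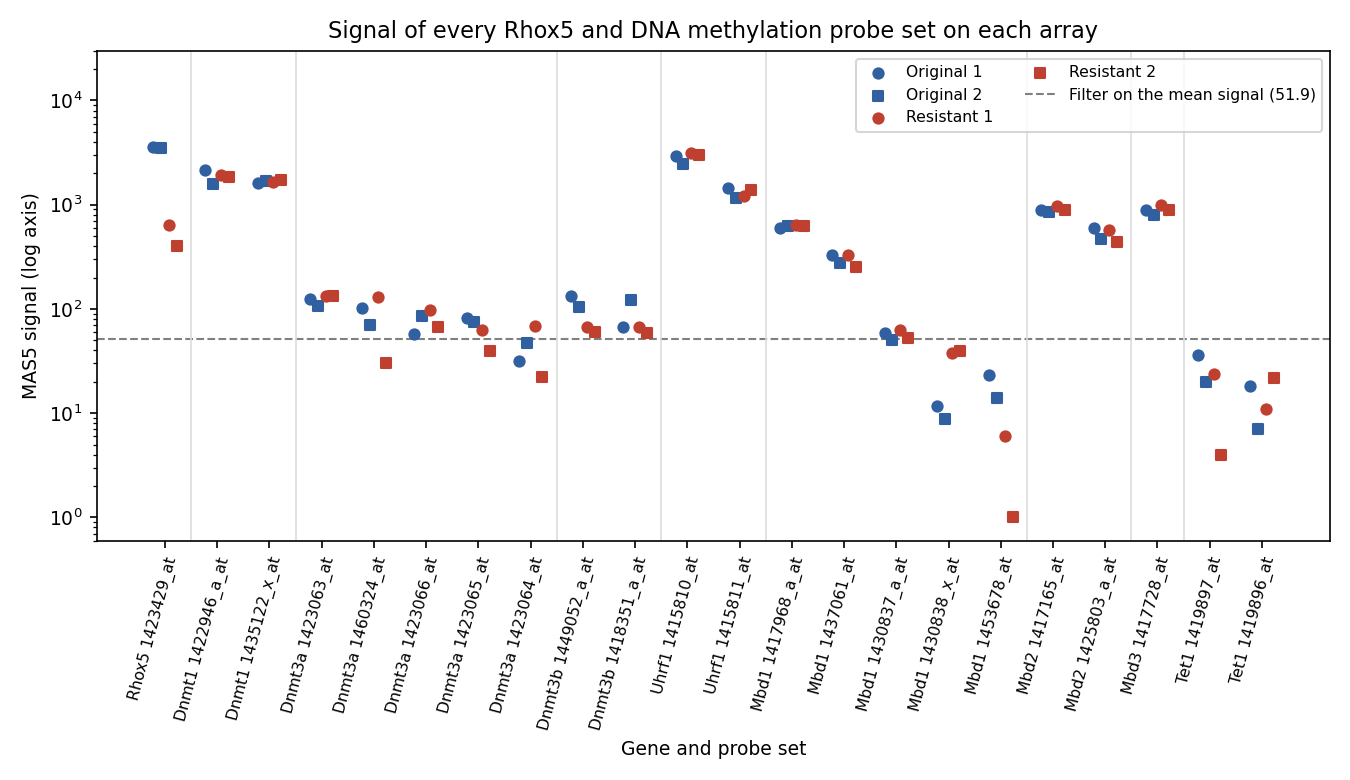
MAS5 signal (log axis) of the 22 probe sets of the 9 genes on each array, with original arrays in blue, resistant arrays in red, circles for arrays numbered 1, squares for arrays numbered 2, and a dashed line at the filter on the mean signal (51.9). The Rhox5 arrays separate by group, at 3578 and 3469.7 against 642.1 and 399.4, while the points of Dnmt1, Uhrf1, Mbd2 and Mbd3 lie close together.

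The maintenance genes had bright signals with little difference between the populations. Dnmt1 was measured by 1422946_a_at at 2167.5 and 1588.2 against 1937.8 and 1837.2 (original against resistant cultures, as in the sentences that follow), with the resistant arrays inside the range of the original ones. The log2 difference was 0.02 ± 0.190 (SE). The original cultures differed from each other by more, -0.45 on the same scale. The second Dnmt1 probe set, 1435122_x_at, whose _x suffix stands for probes that may cross-hybridise, read 1605.4 and 1673.7 against 1666.7 and 1738.8, a difference of 0.05 ± 0.163 (SE).

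Uhrf1, which binds hemimethylated DNA and brings Dnmt1 to it, had signals of 2901.3 and 2475.2 against 3135.1 and 3016.8 on 1415810_at. Both resistant arrays were above both original arrays there, with a log2 difference of 0.20 ± 0.166 (SE). On its second probe set, 1415811_at, the signals were 1457.7 and 1170.2 against 1200.8 and 1382.4. These overlapped, with a difference of -0.02 ± 0.186 (SE), so the probe sets of Uhrf1 did not share the small rise.

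Genes of DNA replication, which are expressed in the same phase of the cell cycle as Dnmt1 and Uhrf1, had a median log2 difference of 0.16 over 38 tested genes against 0.02 over all 7514 tested genes. Of the 38, 0 passed in limma, and 2 had an unadjusted p under 0.05, against 1019 of the 13576 tested probe sets. A difference above 0 was fitted for 33 of the 38, against 3963 of all 7514 tested genes. In 21 of the 38 the resistant arrays were both above the original ones, a larger share than the 19.9% of all tested genes. The largest were Ccne1, the cyclin of S phase entry, at 185 and 251.1 against 362.9 and 456 (0.91 ± 0.256, SE; limma adjusted p = 0.329), and Rfc3, a clamp loader subunit, at 1717.3 and 1168 against 2478.9 and 1964.5 (0.64 ± 0.216, SE; adjusted p = 0.483). Their part in the Uhrf1 and Dnmt1 values was not tested.

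The de novo enzymes were dim. Dnmt3b had signals of 133.1 and 105.5 against 66.4 and 60.5 on 1449052_a_at, where the groups did not overlap. The log2 difference was -0.87 ± 0.358 (SE), the largest in size among the tested probe sets of the 8 machinery genes, and -0.97 and -0.77 within the array sets. With a pseudocount of 64 in place of 3 it was -0.52. The other Dnmt3b probe set, 1418351_a_at, read 67.1 and 121.7 against 66.9 and 58.9, a difference of -0.51 ± 0.416 (SE). The groups did not overlap there either, but the lower original signal and the higher resistant signal were nearly equal. The original cultures differed from each other by 0.83, more than the groups did.

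Dnmt3a had 5 probe sets, and they did not point one way. The brightest, 1423063_at, read 124.4 and 106.3 against 133 and 132.9, higher in the resistant pool by 0.20 ± 0.308 (SE) on the log2 scale. 1423065_at read 81.5 and 74.9 against 62.8 and 39.1, lower by 0.63 in size (log2 difference -0.63 ± 0.426, SE). On 1460324_at the resistant cultures alone spanned 130.4 to 30.6, and the group difference of -0.39 ± 0.590 (SE) was smaller than that spread. 1423066_at overlapped at 0.20 ± 0.410 (SE), and 1423064_at, at 22.2 to 69 over the arrays, was under the filter. The mean over the tested Dnmt3a probe sets was -0.15, opposite in sign to its brightest probe set.

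The methyl-CpG binding genes varied little on their bright probe sets. Mbd2, the reader that links methylated DNA to the NuRD corepressor, read 891.4 and 852 against 969.4 and 897.8 on 1417165_at, a log2 difference of 0.10 ± 0.176 (SE). Its other probe set, 1425803_a_at, gave -0.07 ± 0.224 (SE) with overlapping groups. Mbd3, a NuRD subunit whose mammalian form binds methylated DNA weakly, read 888.4 and 792.1 against 994.8 and 897.3 and differed by 0.17 ± 0.181 (SE). On 1417165_at and on the Mbd3 probe set both resistant arrays were above both original ones, with differences smaller than their SE.

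Mbd1, a reader that also binds unmethylated CpG through its CXXC domains, read 599.2 and 629.6 against 642.4 and 626.6 on its brightest probe set, 1417968_a_at, with a log2 difference of 0.05 ± 0.187 (SE). Its tested probe sets 1437061_at and 1430837_a_at differed by -0.07 ± 0.246 (SE) and 0.08 ± 0.425 (SE), with overlapping groups. Of the Mbd1 probe sets under the filter, 1430838_x_at read 11.8 and 8.8 against 37.7 and 39.2, and 1453678_at read 23.2 and 13.9 against 6.1 and 1. These dim sets moved in opposite directions and were not tested.

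Tet1, which oxidises methylated cytosine, had no probe set above the filter. 1419897_at read 35.9 and 19.7 against 23.5 and 4, and 1419896_at read 18.4 and 7.1 against 10.9 and 21.6. The groups overlapped on both, and at these signals no difference could be measured.

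Across the 9 genes, 17 of the 22 probe sets passed the filter and 5 did not, so that 8 genes had a tested probe set. With limma and Benjamini-Hochberg adjustment at 0.05, 1 of the 17 was called, that of Rhox5. As Rhox5 was selected for its fall in this contrast, its call is no test. Over all tested probe sets 0.228% were called, 31 of 13576, with 12 higher and 19 lower. With quantile normalisation 8 were called, 1 higher and 7 lower. Without a variance trend in limma, Rhox5 was not called. The groups did not overlap in 8 of the 17 probe sets, 4 higher and 4 lower, against 36.1% of all tested probe sets (17.8% higher and 18.4% lower). As this contrast entered the choice of genes, nothing is read from these shares. For 14 of the 16 tested probe sets other than that of Rhox5, the larger of the replicate differences exceeded the group difference in size. A difference between single arrays varies more than one between group means, and no such share over all tested probe sets is given here. Nothing is read from this count either.

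**Figure D3:**
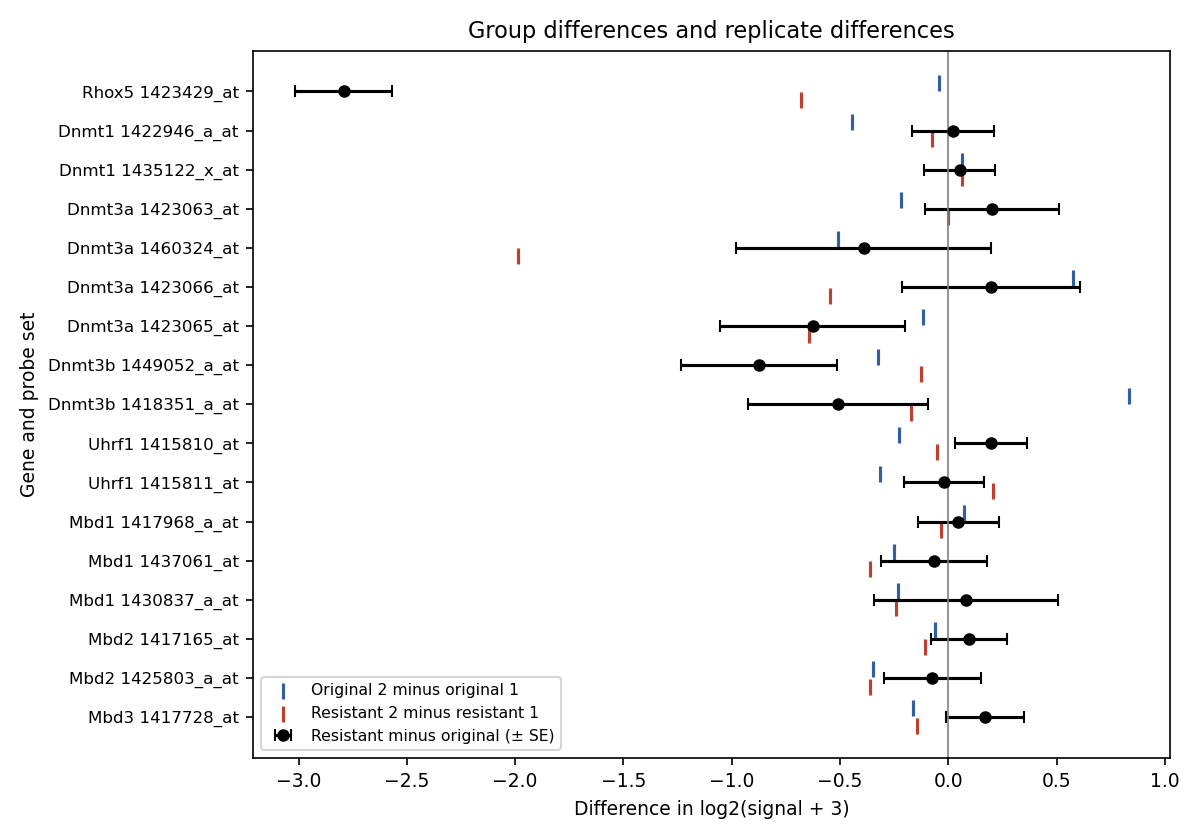
Difference in log2(signal + 3), resistant minus original, with its SE (black), and the differences between replicate cultures, original in blue ticks and resistant in red ticks, for the 17 tested probe sets. Rhox5 lies at -2.79, far from the other genes, which run from -0.87 to 0.20.

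Other genes of DNA methylation and of the repression that follows it were taken from 6 lists, which hold 58 tested genes of 66 on the array. None passed (0 of 58, limma with Benjamini-Hochberg adjustment), and 0.319% of all tested genes passed. An unadjusted limma p under 0.05 was found for 4 of the 58, against 1019 of the 13576 tested probe sets. Their median log2 difference was 0.05, against 0.02 over all tested genes, and the groups did not overlap in 44.8% of them, against 37.3% of all tested genes. Without original 2 the median of the 58 was 0.03, and those of the 6 lists lay between -0.08 and 0.09.

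Among partners of the methyltransferases, 8 of 9 genes on the array were tested, with a median of 0.05. Hells, the chromatin remodeller that de novo methylation of repeats needs, read 2388.9 and 2157.6 against 1971.6 and 2004.1 (log2 difference -0.19 ± 0.163, SE). Usp7, the deubiquitinase that stabilises Dnmt1 and Uhrf1, read 3955.6 and 3802.1 against 4955.4 and 4677.9 (0.31 ± 0.159, SE). The largest difference among the tested genes of this list was that of Trdmt1, once named Dnmt2, which methylates transfer RNA, at -0.46 ± 0.255 (SE). Dmap1, a Dnmt1-associated protein, followed at -0.32 ± 0.221 (SE). Dnmt3l, the cofactor of the de novo enzymes, read 2.6 to 7 over the arrays and was under the filter.

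Of the other readers, Mbd6 (0.26 ± 0.271, SE) and the repair glycosylase Mbd4 (-0.01 ± 0.363, SE) were tested. Among 12 tested genes of demethylation and base excision repair the median was 0.02. Apobec1, a cytidine deaminase, had the largest value at 0.68 ± 0.442 (SE). Idh1, which makes the 2-oxoglutarate that Tet enzymes use, came next at 0.55 ± 0.527 (SE), with signals of 681.1 and 508.4 against 1850.1 and 403. That value rested on the first resistant culture, since the difference was 1.44 within the first array set and -0.33 within the second.

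The 14 tested genes of the NuRD and Sin3 corepressors had a median of 0.07. Sap30, a subunit of the Sin3 histone deacetylase complex, had the largest difference of the 6 lists. It read 734.9 and 1125.6 against 430.1 and 379.3, a log2 difference of -1.17 ± 0.235 (SE), and did not pass (limma, Benjamini-Hochberg adjusted p = 0.121), with both resistant arrays below both original ones. With 1 array left out, the Sap30 difference was -1.47 without original 1 and -0.86 without original 2. It was -1.26 without resistant 1 and -1.08 without resistant 2. Gatad2b, a NuRD subunit, had the next largest at 0.60 ± 0.403 (SE) with overlapping groups. The histone deacetylases Hdac1 (-0.07 ± 0.174, SE) and Hdac2 (0.05 ± 0.187, SE) also overlapped.

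Among 11 tested genes of H3K9 methylation and heterochromatin, the median was 0.05. Cbx5, the heterochromatin protein HP1 alpha, read 2044.9 and 1735 against 2737.8 and 2585.8 (0.50 ± 0.168, SE; limma adjusted p = 0.483). Suv39h2, an H3K9 methyltransferase, differed by -0.47 ± 0.283 (SE). In the supply of the methyl donor S-adenosylmethionine, 11 genes were tested with a median of -0.04. Mat2b, the regulatory subunit of its synthase, read 580.2 and 597.5 against 914.5 and 726.6 (0.47 ± 0.197, SE; limma adjusted p = 0.62), and Tyms, thymidylate synthase, differed by 0.45 ± 0.290 (SE).

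**Figure D4:**
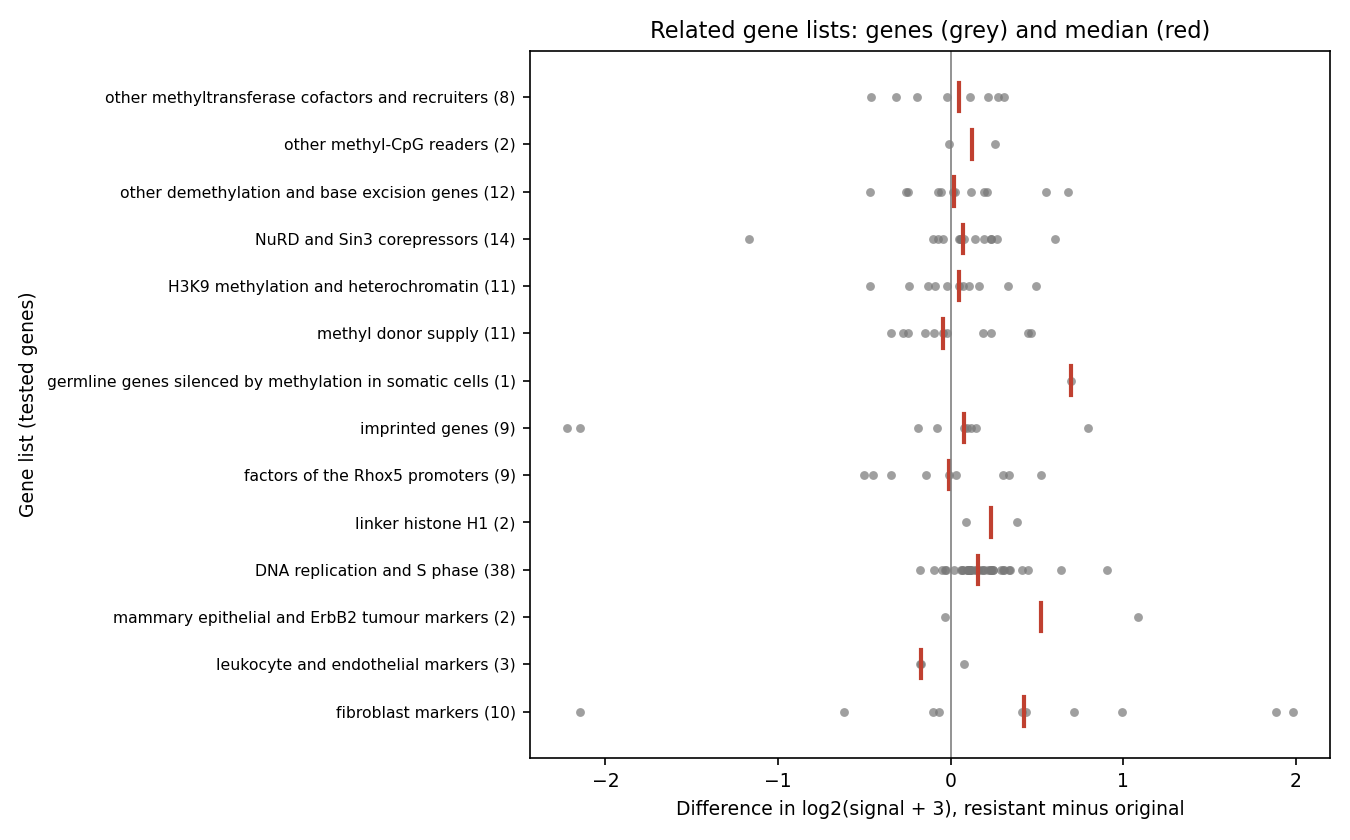
Difference in log2(signal + 3), resistant minus original, of each tested gene (grey points) in the related gene lists (y axis, with the number of tested genes), and the median of each list (red bars). The medians of the lists of the methylation pathway lie between -0.04 and 0.12, while single genes such as Sap30 (-1.17) and, among imprinted genes, Igf2r (-2.22) lie apart.

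The list of factors known from Rhox5 promoters also held Nras, which encodes a Ras GTPase and not a promoter-binding factor. With Nras the list had 9 tested genes, 0 of them called by limma (1 at an unadjusted p under 0.05). Their median was -0.01 (0.07 without original 2). Ets1 read 2018.3 and 1525.2 against 1438.4 and 1066.3, a log2 difference of -0.50 ± 0.210 (SE; limma adjusted p = 0.616). Gata2 differed by 0.53 ± 0.309 (SE; adjusted p = 0.787). Sp1 read 1657.2 and 1932.4 against 2240.2 and 2180.5 (0.30 ± 0.168, SE; adjusted p = 0.762), opposite in sign to Ets1. Linker histone H1 also restrains Rhox5 in other cells, and here 2 H1 genes were tested, H1f10 (0.38 ± 0.394, SE) and H1f2 (0.09 ± 0.226, SE), with 0 called (0 at an unadjusted p under 0.05).

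Other genes that methylation silences were too dim to compare, with 1 exception. Of the Rhox family the array had 2 other genes with a probe set of their own, Rhox6 and Rhox9, both under the filter. Rhox9 read 8.1 and 6.5 against 21.5 and 33.3, and Rhox6 read 4.7 and 1.5 against 5.9 and 22.3, so that both were dim everywhere, with signals that were not lower in the resistant pool. Of 30 germline genes on the array that somatic cells silence by methylation, 29 were under the filter, with signals of 0.3 to 52.8. Mageb3, of the X-linked MAGE family of cancer-testis antigens, was the 1 tested: 84.7 and 48.4 against 116.4 and 96.8 (0.70 ± 0.400, SE; limma adjusted p = 0.777).

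Imprinted genes, whose parental alleles differ in methylation, had 9 tested members, 0 of them called by limma (2 at an unadjusted p under 0.05), with a median of 0.08. The largest differences were those of Igf2r, the receptor that clears Igf2, and of Dcn, the matrix proteoglycan decorin. Igf2r read 598.5 and 276.2 against 126.5 and 56.5, a log2 difference of -2.22 ± 0.437 (SE; limma adjusted p = 0.109), and -2.22 and -2.23 within the array sets. Dcn read 729.1 and 136.7 against 124.9 and 37.9, a difference of -2.15 ± 0.704 (SE; adjusted p = 0.451), with the lower original signal close to the higher resistant one. With 1 array left out, the Igf2r difference was -1.67 without original 1 and -2.78 without original 2. It was -2.78 without resistant 1 and -1.66 without resistant 2. Igf2 itself differed by -0.19 ± 0.376 (SE).

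On the X chromosome, none of the tested neighbours of Rhox5 was called. Of the 10 tested genes on each side in GRCm38.p6 order, 15 were fitted above 0 and 5 below, 0 passed in limma (1 at an unadjusted p under 0.05), and the median log2 difference was 0.10 (0.01 without original 2). They ran from -0.65 ± 0.232 (SE) for Apln, the peptide hormone apelin (limma adjusted p = 0.536), to 0.59 ± 0.300 (SE) for the ribosomal protein gene Rpl39 (adjusted p = 0.728). The tested gene next to Rhox5 on one side, Rnf113a1, read 131.7 and 133.8 against 88.2 and 101.6 (-0.48 ± 0.319, SE; adjusted p = 0.834). The one on the other side, Lamp2, a lysosomal membrane protein gene, differed by 0.05 ± 0.276 (SE).

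**Figure D5:**
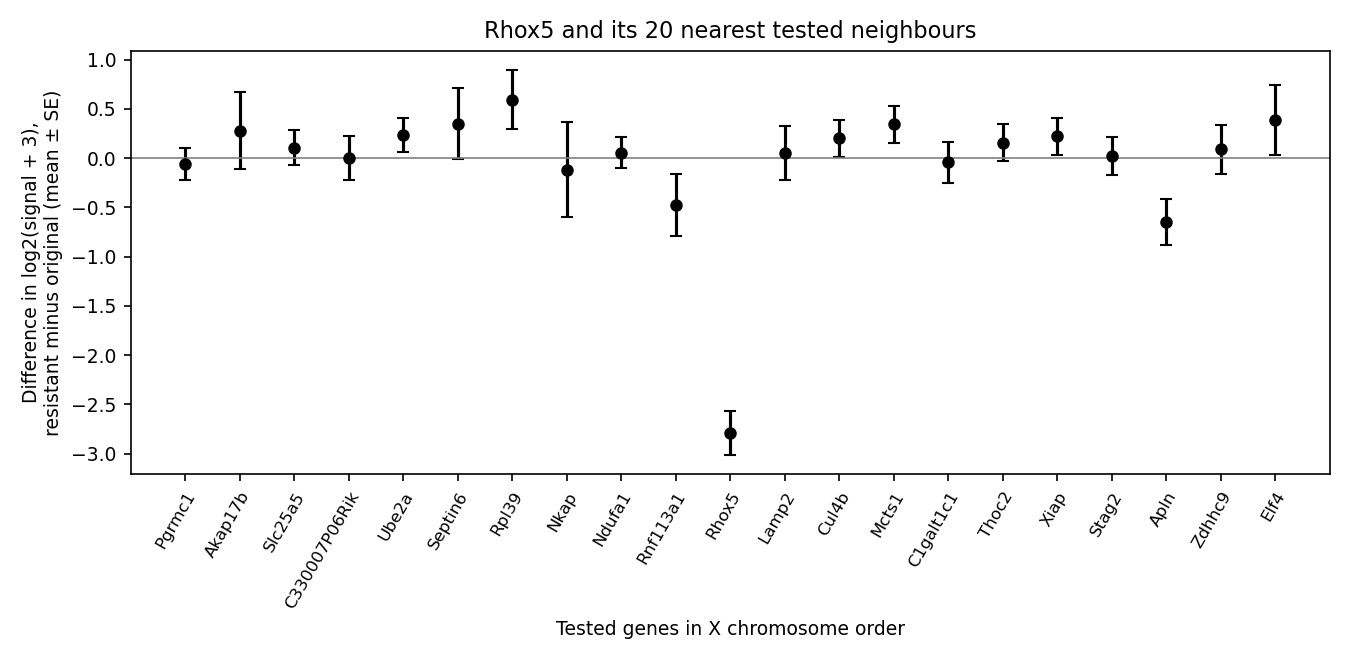
Difference in log2(signal + 3), resistant minus original, with its SE, for Rhox5 and the 10 tested genes on each side of it in X chromosome order (x axis, evenly spaced). Rhox5 lies at -2.79 and the 20 neighbours between -0.65 and 0.59.

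The genes whose pattern over the 4 arrays was most like that of Rhox5 were found by the root mean square difference between centred log2 signals. Tmem185b, a membrane protein gene, was closest at 0.08, with signals of 217.8 and 223.9 against 40.1 and 26. Oas1a, an interferon-induced oligoadenylate synthetase, followed at 0.16 (124.4 and 111.9 against 14.4 and 8.5), then the prostacyclin synthase gene Ptgis at 0.31 (85 and 134.4 against 21.2 and 7.2). The lipoprotein receptor gene Vldlr (0.38), Naalad2 (0.46) and the cysteine synthesis gene Cth (0.49) came next. By the way they were picked, these 6 genes shared with Rhox5 a lower signal on both resistant arrays. Each was dimmer than the filter on at least 1 resistant array, except Vldlr at 66.6 and 57.1. The genes most like Dnmt1 were Nt5c2, Ginm1 and Ext2, and those most like Uhrf1 were Maged1, Chkb and Mpv17l, all at 0.01 on this measure. With 4 arrays this likeness is a description.

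The labelled cell type was checked against its markers. Of 18 mammary epithelial and ErbB2 tumour markers on the array, 16 were under the filter at signals of 1.1 to 62.9, among them Epcam (1.4 to 6.7), Cdh1 (6.7 to 15.3) and Krt18 (7.2 to 25.5). Trp63, a basal cell marker also under the filter, read 1.1 and 26.9 against 58.9 and 43.6. Of the 2 tested markers, Krt14, a basal keratin measured by a probe set that may cross-hybridise, read 31.3 and 28.8 against 35.7 and 124.2 (1.09 ± 0.598, SE; limma adjusted p = 0.758), a difference that rested on the second resistant array. Erbb2 read 319.7 and 299.4 against 280.7 and 326.2, and Vim, of mesenchymal cells, ran from 15875.5 to 19936.1. Epcam, Cdh1 and Krt18, which define epithelial cells, were thus near the floor in both populations. The summed signal of this list was 655.3 to 666.3 in the original and 658.9 to 807.8 in the resistant cultures. Of 13 leukocyte and endothelial markers, 10 were under the filter, Ptprc at 7.4 to 14.8 and Pecam1 at 2.7 to 22.3 among them, and the summed signal was 366.3 to 515.6 against 364.2 to 474.3. The largest tested differences there were those of Csf1r (-0.18 ± 0.477, SE) and Lyz2 (-0.17 ± 0.411, SE), with overlapping groups. Of 13 fibroblast markers 10 were tested, and Col3a1, a fibrillar collagen gene, was the 1 called (1.99 ± 0.322, SE; limma adjusted p = 0.0477; not called with no filter, a filter at the 60th percentile, quantile normalisation or no variance trend, at adjusted p of 0.0642 to 0.317). At an unadjusted limma p under 0.05 there were 5 of the 10, against 1019 of the 13576 tested probe sets. These 5 differed in sign. The matrix genes Postn (1.88 ± 0.557, SE; adjusted p = 0.369) and Col1a1 (0.99 ± 0.272, SE; adjusted p = 0.317) were fitted above 0, and Dcn, given above, and Col1a2 (-0.62 ± 0.183, SE; adjusted p = 0.372) below. In each of these 5 the groups did not overlap, against 37.3% of all tested genes, but picking genes by a low p favours this. The list median was 0.43, and 0.03 without original 2. The summed signal of the list, most of it from Vim, S100a4 and Fn1, was 46883.5 to 50842 against 49323.7 to 52163.8 and overlapped between the groups. The part of these genes in the Rhox5 difference was not tested.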

How the data were processed

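Per the submitters' processing notes, the authors made the deposited values with MAS5, which gives 1 background-adjusted signal intensity per probe set and array on a linear scale; its version: not given in the sources used here. The arrays already shared a trimmed mean (496.8 to 497.8 without the top and bottom 2%), so a global difference in RNA content would not be seen. The table held 22690 probe sets, 64 of them array controls that were left out. Gene names came from the platform annotation, with 1 symbol on 20380 probe sets, several on 691 and no entry on 1555.

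Signals were scaled to a common 2% trimmed mean and turned into log2(signal + 3), where 3 is the rounded 10th percentile. This scale understates changes of dim genes. Signals in the text are as deposited. Probe sets with a mean signal under the 40th percentile were left out. limma 3.58.1 in R 4.3.3 (lmFit, eBayes with a mean-variance trend) compared 2 resistant with 2 original arrays, with Benjamini-Hochberg adjustment over 13576 probe sets. Of these, 1019 had an unadjusted limma p under 0.05, the background for such counts in the lists. The number of arrays limits the precision, and p-values measure only the spread between these samples. A gene took the tested probe set with the highest mean. The fit was tested on simulated data.

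The genes and lists were chosen with earlier results of these data known. Named besides the 9 genes were called list members and the 2 largest fitted differences among the tested genes of each list. The neighbours of Rhox5 (plotted in full) and the genes most like Rhox5, Dnmt1 and Uhrf1 were named too. Other list genes were named for their role or values after these were seen.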

Additional observations from a re-analysis of the deposited data

How the results depend on the processing

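The Rhox5 log2 difference of -2.79 ran from -3.13 to -2.45 when 1 array was left out. With quantile normalisation or a larger pseudocount it ran from -2.80 to -2.65. The remaining alternatives (other filters, no variance trend, replicate block, choice of probe set) could not move it. They leave the group means of its 1 probe set unchanged. The number of called probe sets, 31, was 5 without a filter, 11 with a filter at the 60th percentile, 8 with quantile normalisation and 5 without a variance trend; leaving out 1 array gave 81 to 125, from fits with fewer residual degrees of freedom, in which the lone array is assumed to vary like the other group. Filtering on the mean log2 signal, chosen after seeing the data, gave 23. The labels do not say that the replicate number marks an experiment. With it as a block 740 probe sets were called, and the replicate differences of the groups correlated at 0.35 across probe sets. Of the 58 other pathway genes, that fit called Gadd45b, Sap30 and Cbx5, and of the other lists and the neighbours it called Igf2r, Dcn, Ets1, Apln, Rfc3, Ccne1 and 7 of 10 fibroblast markers (Dcn, Col3a1, Col1a1, Col1a2, Postn, Pdgfra and Fn1). In each of these fits 0 probe sets of the 8 machinery genes were called. The Dnmt1 difference changed sign in 2 of 13 alternatives (-0.20 to 0.25), and that of Dnmt3b ran from -1.04 to -0.52 in 12. Among these, the filter, variance trend and block settings leave both values unchanged by construction. Elsewhere the causes were not tested. Dim signals limit Dnmt3a, Dnmt3b and Tet1.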
